A study of Mus musculus with 2 samples.

Results

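Transcription factor genes that act in bone formation were followed in single cells of the mouse periosteum, 9 of the 31253 features listed in the files. The members were chosen by name and comprise the RUNX genes *Runx1*, *Runx2* and *Runx3*, the zinc finger gene *Sp7*, the DLX homeobox genes *Dlx3*, *Dlx5* and *Dlx6*, and the MSX homeobox genes *Msx1* and *Msx2*. The study sorted Prx1 positive cells from the digested periosteum of femurs and tibias of mice aged 8 weeks and captured them in 2 BD Rhapsody libraries, 1 per genotype. Control mice carried Prx1 Cre with Ai9/+, a red fluorescent reporter that Cre switches on, and the other mice carried the same alleles together with Piezo1 fl/fl, the floxed alleles of a mechanosensitive ion channel gene. The Prx1 promoter drives Cre in limb mesenchyme, so both libraries hold the reporter and Cre, and deletion of *Piezo1* would concern this lineage only. The sources used here do not give the number of mice behind each library. A single library per genotype leaves no replicates, so no test was made, and every interval is a 95% interval that covers counting error only.

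RUNX factors bind DNA as partners of CBFB. *Runx2* is the factor without which osteoblasts do not form, *Sp7* (osterix) acts downstream of it, *Runx1* is best known for blood cell formation, and *Runx3* acts in cartilage maturation and lymphocytes. DLX and MSX proteins are homeobox factors of limb and skull development. *Dlx5* and *Dlx6* lie side by side and are often active together, *Dlx3* acts in osteoblasts and in epithelia, and *Msx1* and *Msx2* are best known from limb buds, sutures and teeth. The periosteum holds an outer fibrous layer and an inner cambium layer next to bone, and skeletal stem and progenitor cells (SSPCs) of both layers can supply osteoblasts.

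The 3 RUNX genes share a stretch of sequence at the more upstream, or only, promoter listed for each, which is shown because it is the plainest common feature of the family that the choice of genes did not use. RefSeq promoters (250 bases before to 50 after a start, GRCm38.p6) were at hand for 5 of the 9 genes, 7 promoters in all. The windows lie at chr16:92826025-92826054 on the minus strand for *Runx1*, chr17:44814583-44814612 on the minus strand for *Runx2* and chr4:135120503-135120532 on the plus strand for *Runx3*, and capitals mark ACCACA, the core letters bound by RUNX proteins.
Runx1: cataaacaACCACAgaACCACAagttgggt
Runx2: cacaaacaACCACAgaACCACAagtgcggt
Runx3: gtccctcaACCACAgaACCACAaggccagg
Each window was cut around both cores with GA between them, so that stretch is shared by the choice of window. With it counted, the windows of *Runx1* and *Runx2* had a run of 22 identical bases in common, and each shared 18 with that of *Runx3*. The tandem of both cores with GA between them, searched on both strands, was present in 4 of 32851 promoters (0.0122%), those of the 3 RUNX genes and that of Gm16225, whereas the single ACCACA was present in 5506 (16.8%). *Runx2* had a further single ACCACA upstream of its start, at chr17:44814690-44814719 on the minus strand.
Runx2 upstream: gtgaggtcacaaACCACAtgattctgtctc
The homeobox core TAATTA, found in 5.29% of promoters, was present in the promoter of *Msx2*, at chr13:53472950-53472979 on the minus strand.
Msx2 upstream: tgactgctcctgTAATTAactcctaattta
These matches are descriptions of letters, not sites shown to be bound.

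*Piezo1*, the gene targeted in the second library, had 147 UMIs (5.24 CPM, UMIs per 1000000 UMIs) for the control and 74 UMIs (2.29 CPM) for the Piezo1 fl/fl library. A UMI tags a captured mRNA molecule near its 3′ end, and the deleted exons are not stated, so this count does not check the deletion. The libraries held 6118 and 7469 barcodes with 28030299 and 32337308 UMIs, of which 4418 and 5084 cells were retained, and 50 barcodes occurred in both. Cell types were named from marker genes other than the 9 factors, with both libraries clustered together and their UMIs summed apart. The main types were SSPC-1-like cells (841 for the control and 1057 for the Piezo1 fl/fl library), SSPC-2-like cells with *Tnn*, *Postn* and *Mmp13* (742 and 376), mature osteoblast-like cells with *Bglap*, *Ibsp* and *Dmp1* (53 and 22) and fibroblast-like cells (1609 and 2236). Mature osteoblast-like and chondrocyte-like cells (14 and 23) were parted cell by cell from a single cluster by their own markers. Endothelial-like cells (176 and 141) and pericyte-like cells (291 and 363) were also present, as were, in spite of the sort, blood-like cells (391 and 433). Levels are given in CPM of the UMIs of a cell type, and they are compared between cell types and libraries but not between genes.

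*Runx2* and *Sp7* marked the osteogenic types. *Runx2* stood at 471 CPM (413 to 534) in mature osteoblast-like cells, 324 (309 to 340.1) in SSPC-2-like cells and 197 (185 to 210.0) in SSPC-1-like cells of the control library, and the 3 intervals did not overlap. The Piezo1 fl/fl library had 342 (269 to 428), 382 (357 to 408) and 141 (131 to 152), where the first overlapped with the second. Chondrocyte-like cells were at 168 and 189.7 CPM, overlapping with SSPC-1-like cells in both libraries, and the highest of the other named types were fibroblast-like cells in the control (24.0) and tendon-like cells in the Piezo1 fl/fl library (25.5). *Sp7* had 398 CPM (345 to 456) in mature osteoblast-like cells, 236 (223 to 249.6) in SSPC-2-like cells and 23.8 (19.6 to 28.5) in SSPC-1-like cells of the control, and 333 (261 to 418), 203 (185 to 222) and 15.8 (12.5 to 19.7) in those of the Piezo1 fl/fl library. Chondrocyte-like cells were at 61.5 CPM (30.7 to 110.0) and 144 (95.4 to 207), the latter overlapping with SSPC-2-like cells. SSPC-2-like cells alone held 76.0% and 70.3% of all *Sp7* UMIs of retained cells. With each cell thinned to 2500 UMIs, *Sp7* was detected in 42.4% of the SSPC-2-like control cells and 4.76% of the SSPC-1-like ones, against 67.1% and 10.5% unthinned. In endothelial-like cells, which should lack *Sp7*, the thinned shares were 1.67% and 1.06%, and the unthinned shares 2.27% and 0.709% at median depths of 3022 and 3126 UMIs, and the thinned share of SSPC-1-like control cells (3.35 to 6.52%, median depth 5119 UMIs) overlapped with that of the endothelial-like cells (0.202 to 5.89%). The *Sp7* levels of the SSPC-1-like cells as a whole lay above those of the endothelial-like cells in each library, which were 6.12 CPM (1.67 to 15.7) and 1.74 (0.0441 to 9.71). At a finer resolution, described below, a *Tnn*-high part held 104 of the 115 control and 68 of the 78 Piezo1 fl/fl *Sp7* UMIs of this class. The *Tnn*-low part was at 4.48 CPM (2.05 to 8.50) and 2.58 (1.24 to 4.75), overlapping with the endothelial-like cells.

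*Runx1* and *Runx3* were spread differently. *Runx1* was broad, with 223 CPM in SSPC-2-like, 215 in blood-like, 214 in tendon-like, 194 in SSPC-1-like and 179 in mature osteoblast-like cells of the control, and neighbours in this order had overlapping intervals. SSPC-1-like cells of the Piezo1 fl/fl library led with 259 CPM, followed by mature osteoblast-like (243), tendon-like (236) and SSPC-2-like cells (196), again with overlap between neighbours, and blood-like cells stood at 138. Pericyte-like and endothelial-like cells were lowest of the types present in both libraries, at 38.1 and 7.66 CPM for the control and 34.8 and 22.6 for the Piezo1 fl/fl library. *Runx3* had its highest level in the few chondrocyte-like cells, 268 CPM (198 to 356, from 48 UMIs in 7 of 14 cells) and 179 (125 to 249.6, from 35 UMIs in 16 of 23 cells). The latter overlapped with mature osteoblast-like cells of that library (62.0 to 149.7). SSPC-2-like cells came at 118 (109 to 128) and 96.7 (84.6 to 110.1), mature osteoblast-like cells at 61.0 and 98.9, blood-like cells at 43.3 and 41.5, and SSPC-1-like cells at 27.9 and 25.7. Blood cell markers, beside which *Runx1* and *Runx3* are read, summed to 85.1 and 72.2 CPM in SSPC-1-like cells and to 65.2 and 56.4 CPM in those of the SSPC-2-like type, against 29200 and 24813 in blood-like cells. Fibroblast-like cells were near 0 for *Runx3*, with 0.886 and 0.8 CPM. Thus *Runx3*, like *Sp7*, set SSPC-2-like apart from SSPC-1-like cells, while the *Runx1* levels of both lay within 194 to 259 CPM.

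The DLX genes fell into separate patterns. *Dlx5* had its highest control level in SSPC-1-like cells, with 414 CPM (397 to 433), 375 (359 to 392) in SSPC-2-like and 203 (166 to 246) in mature osteoblast-like cells, an order in which no neighbours overlapped. SSPC-1-like cells of the Piezo1 fl/fl library were at 157 (147 to 169), SSPC-2-like cells at 257 (237 to 278) and mature osteoblast-like cells at 189 (136 to 255). There mature osteoblast-like cells overlapped with both other types, while SSPC-1-like cells lay below SSPC-2-like cells. *Dlx6* had 151, 155 and 100.4 CPM in the same types of the control and 38.2, 92.9 and 36.0 in those of the Piezo1 fl/fl library. The 2 genes lie 9236 bp apart with their 3′ ends facing each other on chromosome 6 (*Dlx6* at 6863334 to 6868568 on the plus and *Dlx5* at 6877805 to 6882085 on the minus strand, GENCODE vM21, GRCm38). *Dlx6* lies inside the antisense gene *Dlx6os1*, which had 347 and 94 UMIs against 1867 and 550 of *Dlx6* over all barcodes, and since the strand used in counting is not stated, reads of the pair may not be separable. *Dlx3* was nearly absent from SSPC-1-like cells, with 1 UMI for the control and 2 for the Piezo1 fl/fl library, and had 5.10 CPM (3.36 to 7.42) and 9.67 (6.13 to 14.5) in SSPC-2-like cells. It reached 152 CPM (119.6 to 189) and 157 (109.6 to 219) in mature osteoblast-like cells. Its highest level was outside the bone lineage, in the *Prg4*-positive lining-like cells, with 252 CPM (209 to 302) and 374 (337 to 412), and *Dlx3* was found in 70.9% and 81.3% of these cells (41.8% and 57.5% at 2500 UMIs). Lining-like cells held 33.0% of the *Dlx3* UMIs of retained control cells and 68.2% of those of the Piezo1 fl/fl library.

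*Msx1* was not led by the osteogenic types, and *Msx2* had too few UMIs for an order. *Msx1* was highest in pericyte-like cells, at 146 CPM (126 to 169) and 115 (99.4 to 133), with no overlap with the next type in either library. SSPC-2-like cells had 49.1 CPM (43.3 to 55.5) for the control and 16.4 (11.7 to 22.4) for the Piezo1 fl/fl library, and SSPC-1-like cells 25.4 (21.1 to 30.3) and 7.08 (4.93 to 9.85). Endothelial-like cells had 44.4 and 57.5 CPM, so these cells do not serve as a background for *Msx1*, and mature osteoblast-like cells had only 6 and 1 UMIs. *Msx2* was barely captured, with 10 UMIs in the 4418 retained control cells and 19 in the 5084 cells of the other library. No *Msx2* UMI was seen in SSPC-1-like cells, where a count of 0 allows up to 0.620 and 0.607 CPM, or in mature osteoblast-like cells, where it allows up to 5.91 and 13.5 CPM, so a low level in the latter was not detectable at this depth.

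**Figure D1:**
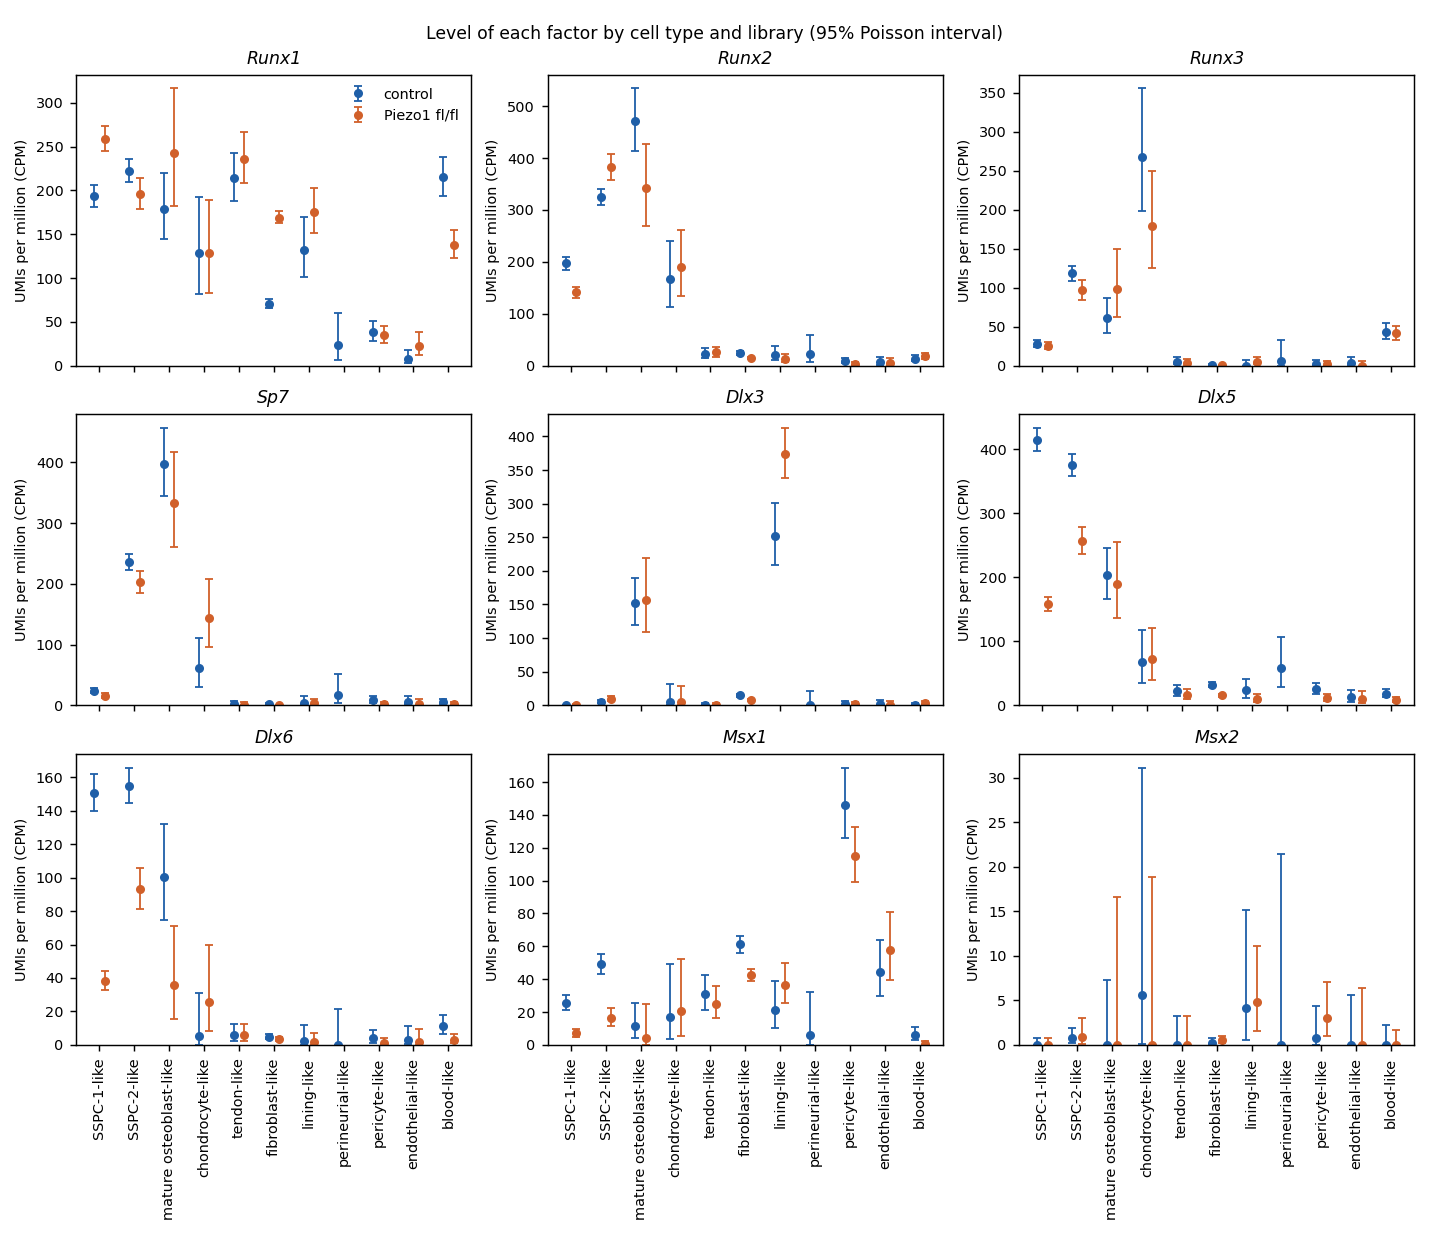
Level of each factor in CPM (vertical axis from 0, scaled per gene) in 11 named cell types, for the control library (blue) and the Piezo1 fl/fl library (orange); points are summed UMIs over the type total and bars are 95% Poisson intervals. *Runx2* and *Sp7* peak in SSPC-2-like and mature osteoblast-like cells, *Dlx3* in lining-like cells (252 and 374 CPM) and *Msx1* in pericyte-like cells (146 and 115 CPM), and perineurial-like cells occur only in the control library.

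The step from SSPC-1-like to SSPC-2-like cells asks how the factors differ between the 2 progenitor types of the periosteum. The largest ratios were those of *Sp7*, *Runx3* and *Dlx3*, of which that of *Dlx3* rests on levels near background. On the log2 scale *Sp7* was higher in SSPC-2-like cells by 3.31 (3.04 to 3.60) for the control and by 3.68 (3.34 to 4.05) for the Piezo1 fl/fl library, and *Runx3* by 2.08 (1.81 to 2.36) and 1.91 (1.59 to 2.24). *Dlx3* had ratios of 4.07 (2.02 to 9.98) and 4.29 (2.56 to 7.71), which rest on 1 and 2 UMIs in the SSPC-1-like cells. Its SSPC-2-like levels overlapped with those of endothelial-like cells, which were 1.53 CPM (0.0388 to 8.53) for the control and 0 (0 to 6.43) for the Piezo1 fl/fl library. *Runx2* was higher by 0.72 (0.60 to 0.83) and 1.43 (1.29 to 1.58), and *Msx1* by 0.95 (0.64 to 1.27) and 1.21 (0.52 to 1.91). For *Dlx5* and *Dlx6* the libraries differed. Their ratios were -0.14 (-0.23 to -0.05) and 0.04 (-0.11 to 0.18) in the control but 0.70 (0.55 to 0.86) and 1.28 (0.99 to 1.57) in the Piezo1 fl/fl library. *Runx1* was 0.20 (0.08 to 0.33) in the control and -0.40 (-0.56 to -0.25) in the other library. The sign of the *Dlx5* ratio in the control depends on the total used, since with mitochondrial, ribosomal protein and collagen genes left out of it the value was 0.07.

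Of the 8 members with at least 10 UMIs over both types, 3 were at least 2-fold higher in SSPC-2-like cells of the control library, where 6.34% of the 12271 genes with that many UMIs were, and none was at least 2-fold lower, where 16.4% of genes were. In the Piezo1 fl/fl library 6 of 8 were at least 2-fold higher (6.73% of 11760 genes) and none lower (13.7%). Both counts of higher members include *Dlx3*, whose SSPC-2-like level overlapped with that of endothelial-like cells. The median log2 ratio of the members was 0.83 for the control and 1.36 for the Piezo1 fl/fl library, beside -0.24 and -0.17 over all genes. The make-up of the SSPC-1-like cells differed between the libraries, as described below. A *Tnn*-low part held 399 control and 871 Piezo1 fl/fl cells, and a *Tnn*-high part 440 and 184. *Runx2* was at 141 and 109 CPM in the former and at 237 and 259 in the latter. How far this make-up enters the ratios, or their difference between the libraries, was not tested. Along this step 7 of the 11 dissociation genes were lower in SSPC-2-like cells of the control (median -0.45), as were 8374 of all 12271 genes. In the other library 10 of 11 were lower (median -0.65), as were 7365 of all 11760 genes. The part of the dissociation genes in the ratios was not tested. At equal depth, a median of 2 members was detected per cell in both types of the control library, with means of 2.51 in SSPC-2-like cells and 1.60 in SSPC-1-like cells. The means of the Piezo1 fl/fl library were 2.24 and 1.18, and in endothelial-like cells they were 0.192 and 0.191.

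Mature osteoblast-like cells were next compared with SSPC-2-like cells, with the limit that they number 53 and 22. *Dlx3* stood out, higher by 4.88 (4.24 to 5.58) for the control and 4.01 (3.22 to 4.85) for the Piezo1 fl/fl library on the log2 scale. *Sp7* was higher by 0.75 (0.53 to 0.97) and 0.72 (0.34 to 1.07). *Runx2* was higher by 0.54 (0.34 to 0.73) in the control, but in the Piezo1 fl/fl library its ratio of -0.15 (-0.52 to 0.18) could not be told from 0. *Dlx5* was lower in the control, at -0.88 (-1.19 to -0.60), and had a ratio of -0.43 (-0.93 to 0.01) in the other library, while *Dlx6* was at -0.61 (-1.06 to -0.22) and -1.29 (-2.60 to -0.37). *Runx3* was at -0.93 (-1.52 to -0.43) for the control and 0.06 (-0.67 to 0.66) for the Piezo1 fl/fl library. *Msx1* was at -1.94 (-3.52 to -0.91) and -1.30 (-7.21 to 0.70), and *Runx1* at -0.31 (-0.64 to -0.0045) and 0.32 (-0.13 to 0.72).

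In the control 1 of 8 members was at least 2-fold higher in mature osteoblast-like cells (9.23% of 11163 genes) and 1 at least 2-fold lower (17.8%). In the Piezo1 fl/fl library 1 of 8 was higher (9.20% of 9863 genes) and 2 were lower (20.6%). The median ratios of -0.46 and -0.05 lay beside -0.10 and -0.16 over all genes. The dissociation response genes differed along the same step, with 10 of 11 at least 2-fold lower in mature osteoblast-like cells of the control and 6 of 11 in those of the Piezo1 fl/fl library, and their part in these ratios was not tested.

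**Figure D2:**
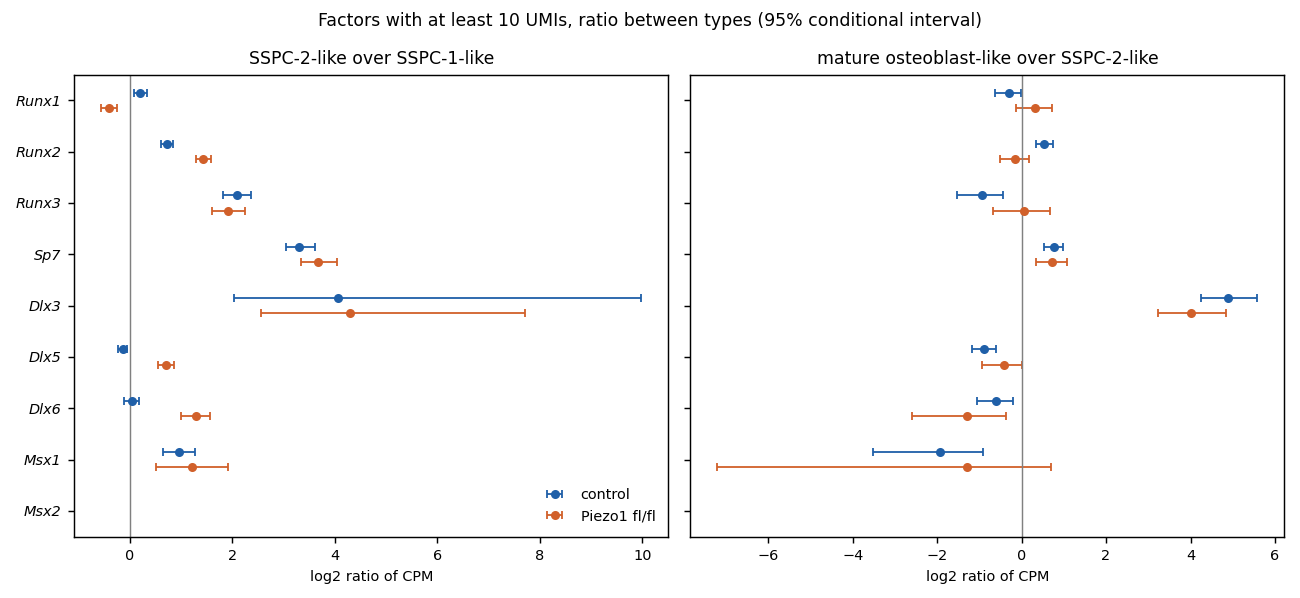
Log2 ratio of CPM (horizontal axes) of SSPC-2-like over SSPC-1-like cells (left) and of mature osteoblast-like over SSPC-2-like cells (right) for each factor with at least 10 UMIs, in the control (blue) and the Piezo1 fl/fl library (orange), with 95% conditional intervals. *Sp7* lies to the right of 0 in all 4 comparisons, *Dlx3* has the largest ratios, and *Dlx5* and *Dlx6* lie near 0 in the control but at 0.70 and 1.28 in the Piezo1 fl/fl library on the left.

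To avoid the border between the 2 types, SSPC-2-like and mature osteoblast-like cells of each library were pooled, ranked by the share of their UMIs from 7 osteoblast markers (*Bglap*, *Bglap2*, *Ifitm5*, *Dmp1*, *Phex*, *Ibsp* and *Spp1*) and divided into 5 bins of equal number. Bins hold 159 cells each for the control and 79 or 80 for the Piezo1 fl/fl library, and since the markers' median share in the lowest bin was 0.0272% in one and 0.0871% in the other, bins are read within a library only. *Runx2* went from 183 CPM (160.1 to 207) in the lowest to 542 (501 to 585) in the highest bin of the control, passing 268, 375 and 342, and from 244 (202 to 292) to 516 (462 to 574) in the Piezo1 fl/fl library. *Sp7* went from 162 (141 to 185) to 361 (327 to 397) and from 123 (93.8 to 158) to 249 (212 to 290.2). In the Piezo1 fl/fl library *Sp7* was already at 227 in the second bin and overlapped with all later bins.

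*Dlx3* was the latest of the members along this ranking. It stayed below 5 CPM in the lower 4 control bins and was at 78.6 (63.4 to 96.3) in the highest, and it had 13.4 (5.37 to 27.5) in the fourth and 74.1 (54.7 to 98.3) in the highest bin of the Piezo1 fl/fl library. *Dlx5* was lowest in the highest bin, without a steady fall before it. In the control it started at 385 (352 to 419.9), stayed within 360 to 408 CPM in the lower 4 bins and ended at 265 (237 to 296). In the Piezo1 fl/fl library it started at 279 (234 to 329), passed 342, 229 and 280 and ended at 165 (135 to 199.7). *Runx3* lay between 109 and 131 CPM in the lower 4 control bins and at 76.9 (61.9 to 94.4) in the highest, whereas in the Piezo1 fl/fl library all 5 bins overlapped. *Runx1* went from 192 (169 to 217) to 254 (226 to 284) for the control. In the Piezo1 fl/fl library it went from 137 (106 to 174) to 253 (216 to 295). The lowest and highest bins did not overlap in either library. Mature osteoblast-like control cells, all in the highest bin, were at 179 CPM (144 to 220.0), below that bin's interval. The control rise of *Runx1* was therefore not carried by these cells. Those of the Piezo1 fl/fl library were at 243 CPM (182 to 317). With cells thinned as above, the shares with *Runx1* overlapped between the lowest and highest bins of both libraries. They were 33.8% (26.4 to 41.7) and 40.1% (32.3 to 48.4) for the control. *Msx1* had overlapping intervals throughout. The highest bin holds all 53 mature osteoblast-like cells of the control and 19 of the 22 of the Piezo1 fl/fl library.

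**Figure D3:**
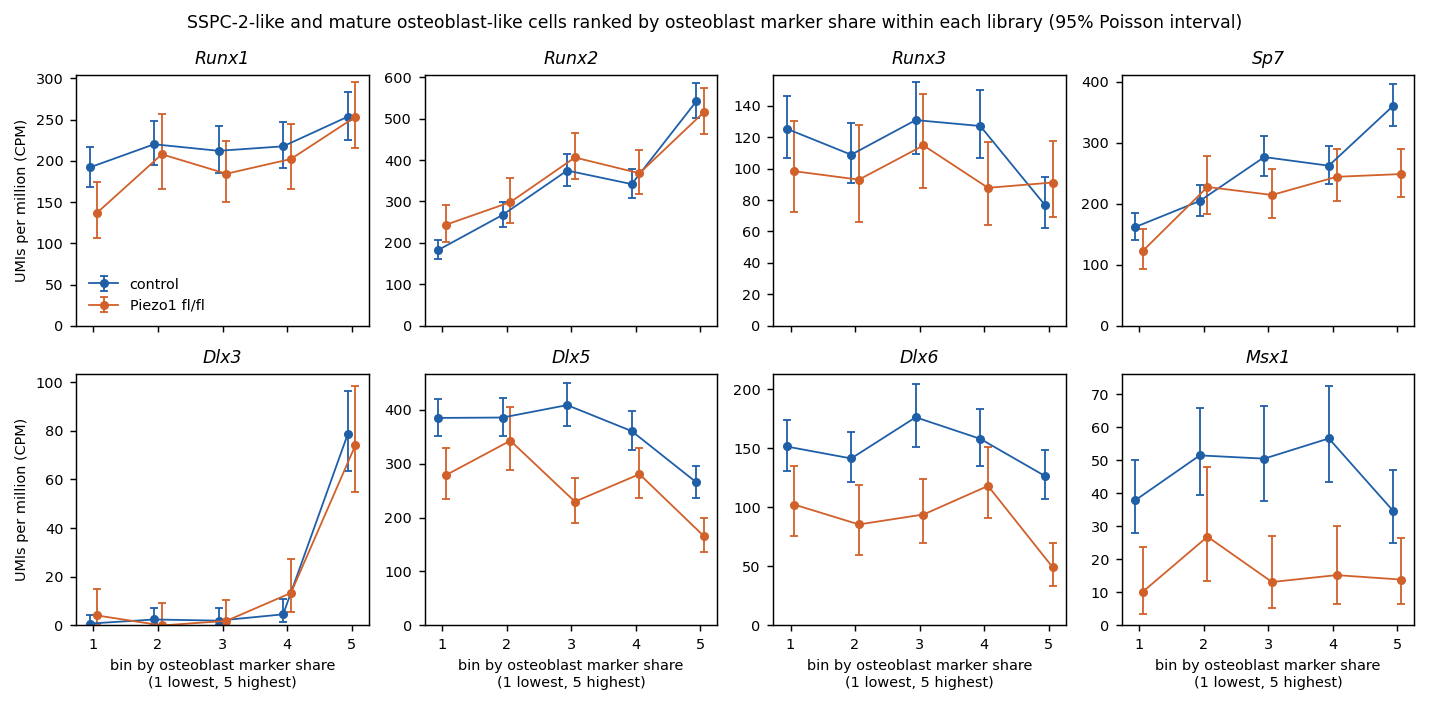
Level of 8 factors in CPM (vertical axes from 0, scaled per gene) in 5 equal bins of SSPC-2-like and mature osteoblast-like cells ranked within each library by the share of UMIs from osteoblast markers (horizontal axes, 1 lowest to 5 highest), with 95% Poisson intervals; *Msx2* is left out for lack of UMIs. *Runx2* reaches 542 and 516 CPM in the highest bin, *Dlx3* is low in the lower bins and at 78.6 and 74.1 CPM in the highest, and *Dlx5* ends below its start.

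Whether the factors were found in the same cells was read in SSPC-2-like cells thinned to 2500 UMIs. *Sp7* was detected in 45.7% (40.4 to 51.1) of the 350 control cells with *Runx2* and in 39.2% (34.2 to 44.5) of the 362 without, and in the Piezo1 fl/fl library in 46.4% (39.3 to 53.7) of 196 and 31.8% (24.6 to 39.7) of 157. The intervals overlapped in both libraries. *Dlx5* was detected in 62.7% (56.0 to 69.1) of the 220 control cells with *Dlx6* and in 49.4% (44.9 to 53.9) of the 492 without, which did not overlap, while the shares in the Piezo1 fl/fl library were 47.2% and 43.4%. Among the control pairs, intervals were also apart for *Dlx5* in cells with *Sp7* (59.9%, 54.2 to 65.5) and without (48.8%, 43.8 to 53.7), and for *Msx1* in cells with *Dlx6* (16.8%, 12.1 to 22.4) and without (8.94%, 6.57 to 11.8). No measured pair was apart in the Piezo1 fl/fl library. It had 353 such cells against 712 in the control, so its intervals were wider and overlap there does not show that co-detection was lost. Pairs with *Msx1* were not measured there, since too few cells held an *Msx1* UMI. For *Runx1* and *Runx2* the intervals overlapped as well, *Runx2* being found in 136 of 272 control cells with *Runx1* and 214 of 440 without, and in 55.8% and 55.4% in the Piezo1 fl/fl library.

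Likeness of pattern was measured as Pearson's r of log2(CPM + 1) over the 9 named types with at least 20 cells in each library, among 10475 other genes, and the lower r of the 2 libraries set the order. Types share a library and differ in depth, with median UMIs from 3022 to 7010 in the control and from 3126 to 8871 in the other library, so r is a description. *Sp7* was most like *Mmp13* (r = 0.96 for the control and 0.99 for the Piezo1 fl/fl library), a matrix protease that served as an SSPC-2 marker, and *Prss35* (0.95 and 0.97). *Runx2* was most like the cadherin gene *Cdh11* (0.95 and 0.94), and *Dlx5* was most like its neighbour *Dlx6* (0.96 and 0.97), followed by *Runx2* (0.95 and 0.93). *Dlx6* was also like *Dync1i1* (0.94 and 0.98). *Dlx3* was most like *Smpd3* (0.93 and 0.88), *Runx3* like *Pak1* (0.91 and 0.88), *Runx1* like *Tmem97* (0.94 and 0.93) and *Msx1* like the intermediate filament gene *Synm* (0.96 and 0.95). Between members, *Msx1* had negative r with each of the other 7 measured genes in both libraries, from -0.08 (with *Dlx5*) to -0.76 (with *Runx3*).

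Other genes around these factors were read in 5 lists. The 8 RUNX cofactors had median log2 ratios of 0.18 and -0.11 in SSPC-2-like over SSPC-1-like cells, beside -0.24 and -0.17 over all genes. *Cbfb*, the common RUNX partner, was higher by 0.995 and 0.92, and *Wwtr1* was lower, at -1.01 and -1.03. Of 10 factors known to restrain RUNX2, 8 had ratios below 0 in each library, as had 8374 of 12271 genes in the control and 7365 of 11760 in the other, with medians of -0.67 and -0.77, among them *Zfp521* at -0.98 and -0.85 and *Tle1* at -1.57 and -1.24, while *Twist1* had -0.16 and 0.38. Of 12 other osteoblast factors, 10 had at least 10 UMIs and 2 of these were at least 2-fold higher in each library (6.34% and 6.73% of all genes), and *Fosl2* was lower in the Piezo1 fl/fl library at -1.11. They were led by *Vdr*, the vitamin D receptor, at 4.32 and 4.23, whereas the median of the 10 was -0.04 and -0.05. From SSPC-2-like to mature osteoblast-like cells, 4 of these 10 were at least 2-fold higher in each library (9.23% and 9.20% of all genes) and *Zbtb16* was lower in the Piezo1 fl/fl library at -2.23. The higher genes included *Mef2c* at 2.70 and 2.12 and *Creb3l1* at 1.13 and 1.12. The 3 cartilage factors *Sox5*, *Sox6* and *Sox9* had ratios of 0.86, 1.59 and 0.70 in SSPC-2-like over SSPC-1-like control cells. Of the other DLX, MSX and SP genes, *Sp1*, *Sp3* and *Sp6* reached 10 UMIs, *Sp6* with 63 UMIs in SSPC-2-like and 0 in SSPC-1-like control cells.

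Between the libraries, SSPC-1-like cells had lower *Dlx5*, *Dlx6* and *Msx1* in the Piezo1 fl/fl library. The log2 ratio over the control was -1.40 (-1.52 to -1.28) for *Dlx5*, -1.98 (-2.22 to -1.75) for *Dlx6* and -1.83 (-2.43 to -1.29) for *Msx1*. At 2500 UMIs per cell *Dlx5* was found in 49.4% (45.8 to 53.0) of SSPC-1-like control cells and 224 of 897 (22.2 to 27.9%) of those of the Piezo1 fl/fl library, and *Dlx6* in 27.6% and 9.03%. *Runx1* was higher by 0.42 (0.30 to 0.54), *Runx2* was at -0.48 (-0.62 to -0.34), *Sp7* at -0.59 (-1.02 to -0.16), and *Runx3* at -0.12 (-0.48 to 0.24) could not be told from 0. Of 7 members with enough UMIs, 3 were at least 2-fold lower, where 5.90% of 12288 genes were, and none was at least 2-fold higher (3.17%). The median ratio was -0.59, beside -0.05 over all genes, and -1.48 when each cell was typed by its own markers. In the same cells 10 of the 11 dissociation genes were higher in the Piezo1 fl/fl library, with a median of 0.38, where 5372 of all 12288 genes were higher. The part of the dissociation genes in these differences was not tested.

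The make-up of the SSPC-1-like class differed between the libraries, and the ratios were therefore also read within its parts. At a finer resolution, chosen for display after the clusters were seen, most SSPC-1-like cells fell into a *Tnn*-low part (399 control and 871 Piezo1 fl/fl cells) and a *Tnn*-high part (440 and 184). All members but *Dlx3*, *Msx2* and *Runx1* were higher in the *Tnn*-high part in both libraries. Within the *Tnn*-low part *Dlx5* had 280.1 CPM for the control and 101 for the Piezo1 fl/fl library, a log2 ratio of -1.47 (-1.66 to -1.28), and within the *Tnn*-high part 511 and 363, a ratio of -0.49 (-0.66 to -0.33). *Dlx6* had ratios of -1.48 (-1.87 to -1.11) and -1.31 (-1.66 to -0.996) and *Msx1* of -1.35 (-2.25 to -0.49) and -1.42 (-2.42 to -0.62), so these 3 genes were lower within either part. *Runx1* was higher in both, by 0.36 (0.19 to 0.53) and 0.46 (0.24 to 0.68). *Runx2* was at -0.37 (-0.59 to -0.15) and 0.13 (-0.08 to 0.33), and *Sp7* at -0.80 (-2.25 to 0.68) and 0.80 (0.33 to 1.25), so the lower *Sp7* and *Runx2* of the whole class did not hold within the *Tnn*-high part.

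In SSPC-2-like cells the same 3 genes were lower in the Piezo1 fl/fl library, by smaller amounts for the DLX pair. The ratios were -0.55 (-0.68 to -0.42) for *Dlx5*, -0.73 (-0.96 to -0.52) for *Dlx6* and -1.57 (-2.11 to -1.09) for *Msx1*. *Runx2* was higher by 0.24 (0.12 to 0.35), and *Runx1*, *Runx3* and *Sp7* were at -0.18 (-0.34 to -0.03), -0.29 (-0.51 to -0.07) and -0.22 (-0.38 to -0.07). *Dlx3* was at 0.93 (0.05 to 1.78) from 23 and 27 UMIs. Of 8 members 1 was at least 2-fold lower (3.79% of 11516 genes) and none higher (4.37%), and the median was -0.25, beside 0.03 over all genes. In the pooled bins above the osteoblast marker share was higher in the Piezo1 fl/fl library, and its part in these values was not tested.

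In mature osteoblast-like cells, 53 against 22, *Dlx6* was at -1.41 (-2.77 to -0.40) from 51 and 8 UMIs, but at 0.058 with cells thinned to 2500 UMIs. *Runx2* was at -0.46 (-0.85 to -0.08). The other 5 measured members had intervals that include 0, among them *Dlx5* at -0.09 (-0.66 to 0.43), *Dlx3* at 0.06 (-0.57 to 0.65) and *Sp7* at -0.25 (-0.66 to 0.13). Of 7 members 1 was at least 2-fold lower, where 12.1% of 6427 genes were, and none higher (7.31%). The median was -0.09, beside -0.04 over all genes. Here 6 of the 11 dissociation genes were at least 2-fold higher in the Piezo1 fl/fl library.

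**Figure D4:**
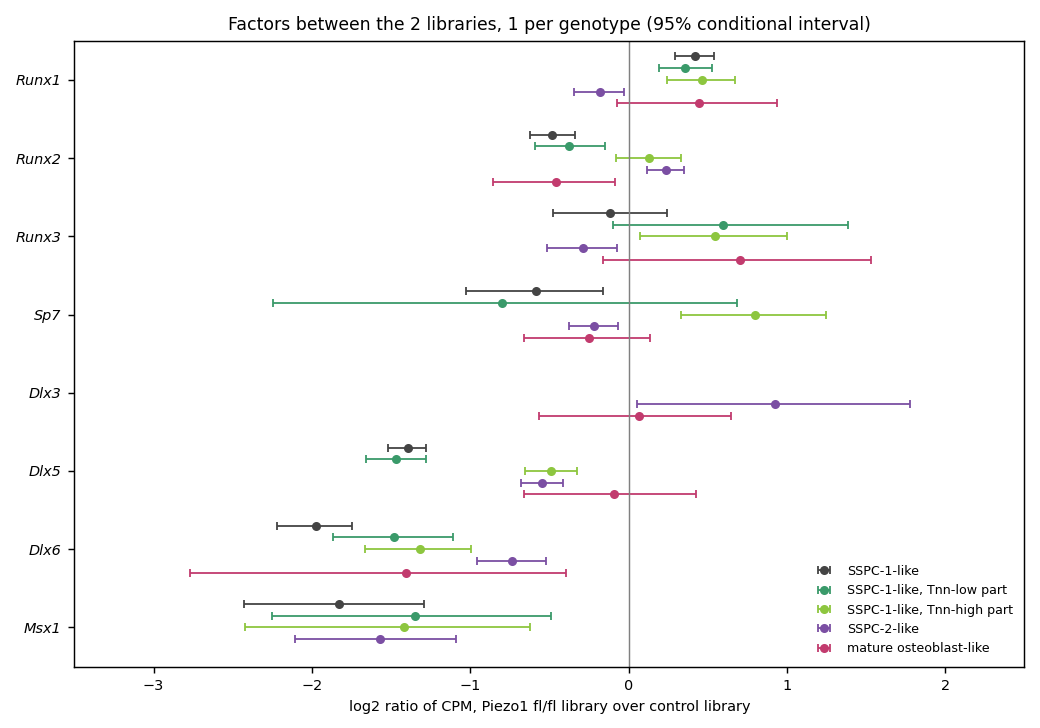
Log2 ratio of CPM of the Piezo1 fl/fl library over the control library (horizontal axis) for 8 factors in SSPC-1-like cells (grey), their *Tnn*-low and *Tnn*-high parts (dark and light green), SSPC-2-like cells (purple) and mature osteoblast-like cells (pink), where both libraries together held at least 10 UMIs, with 95% conditional intervals; the interval of *Msx1* in SSPC-2-like cells runs from -2.11 to -1.09. *Dlx5*, *Dlx6* and *Msx1* lie left of 0 in SSPC-1-like cells, in both of their parts and in SSPC-2-like cells, and *Runx1* lies right of 0 in SSPC-1-like cells and in both parts.

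Outside the osteogenic types the libraries also differed. *Dlx5* and *Dlx6*, low in blood-like cells, had ratios of -1.08 (-2.01 to -0.23) and -1.77 (-3.33 to -0.52) there, and *Dlx5* was at -1.09 (-2.01 to -0.24) in pericyte-like cells, where *Msx1* was at -0.34 (-0.64 to -0.04). Control *Dlx5* was at 18.4 CPM (12.5 to 26.1) in blood-like and 24.9 (17.0 to 35.2) in pericyte-like cells. Both overlapped with endothelial-like cells (12.2, 5.29 to 24.1), read as background for *Dlx5*. The Piezo1 fl/fl library had 8.57, 11.6 and 10.5 CPM in the same types, so these *Dlx5* ratios compare levels near background. *Dlx6* was at 11.3 and 3.16 CPM in blood-like cells of the control and the Piezo1 fl/fl library, beside 3.06 and 1.74 in endothelial-like cells. *Dlx3* in lining-like cells was higher in the Piezo1 fl/fl library by 0.56 (0.27 to 0.87). Fibroblast-like cells were compared by cluster, because a leading gene of 1 of their clusters was a Schwann cell marker. In that cluster, led by *Cfd*, *Runx1* had 106 CPM in 772 control cells and 287 in 1067 Piezo1 fl/fl cells, a log2 ratio of 1.43 (1.28 to 1.59). In the clusters led by *Slurp1* and *Dact2* it was higher by 0.59 (0.26 to 0.95) and 1.63 (1.22 to 2.06), and in that led by *Acsbg1* the ratio was -0.34 (-0.89 to 0.22). *Dlx5*, at 13.2 to 35.9 CPM in these 4 control clusters, had ratios between -1.43 and -0.83 in them, of which that in the *Acsbg1* cluster had an interval that includes 0. In tendon-like cells *Runx1* had 214 and 236 CPM, a ratio of 0.14 (-0.11 to 0.40).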

How the data were processed

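Per the labels, cells were captured with BD Rhapsody, and the authors deposited for each library raw UMI counts by cell and gene, without normalization. The submitters' notes name fastp, UMI-tools, STAR and Seurat 4.0.3. Genome build, annotation and the strand used in counting are not given in the sources used here, and positions are those of GENCODE vM21. Cells were retained if 1000 to 5000 genes were detected and mitochondrial UMIs stayed below 25%. Scrublet (scanpy 1.11.5, rate 0.05) removed doublets, 46 and 67 (0.829% and 0.988% of barcodes scored). Seurat 5.3.0 clustered both libraries together (2000 variable features less the members and list genes, 20 components, resolution 0.4). Clusters were named from 82 markers of 13 classes, and thresholds were set after the clusters were seen: at least 3 detected markers and a mean log2 score of 2, with *Kera* required for tendon and a cluster high in *Mki67* left unnamed. Ratios add 0.5 UMIs to both counts and need 10 UMIs. Intervals are exact (Poisson, conditional, Clopper-Pearson). Cells under 2500 UMIs were left out of thinned shares, 84 and 160 SSPC-1-like, 30 and 23 SSPC-2-like, 2 and 1 mature osteoblast-like, and 56 and 47 endothelial-like cells. All 9 members were described, and the 2 most alike genes were ranked for members with at least 100 UMIs in each library. List genes were given as counts, medians and the examples with most UMIs or the largest ratios. Ratios were tested on simulated data. Members, lists and comparisons were chosen with earlier results of these data known. The result of 1 listed gene is not reported here.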

Additional observations from a re-analysis of the deposited data

Results flagged for a closer look

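Some ratios pointed opposite ways in different cell types or libraries, with counting intervals that exclude 0 on both sides, and with 1 library per genotype the difference between them was not tested. For *Runx1*, the log2 ratio of the Piezo1 fl/fl library over the control was 0.42 in SSPC-1-like cells, -0.18 in SSPC-2-like cells and -0.64 in blood-like cells. Blood-like cells were divided otherwise between clusters in each library, and *Runx1* in the *Vsig4* cluster was at 164 CPM (137 to 196, 166 cells) in the control against 135 (115 to 156, 284 cells). In the other blood-like cluster, led by *Igkv14-126*, *Runx1* was at 257 CPM (225 to 292, 225 cells) against 143 (119 to 169, 149 cells), without overlap. For *Runx2* it was 0.24 in SSPC-2-like cells, -0.48 in SSPC-1-like cells, -0.46 in mature osteoblast-like cells and -1.71 in pericyte-like cells, the last from 4 and 11 UMIs. The ratio of SSPC-2-like over SSPC-1-like cells was -0.40 for *Runx1* in the Piezo1 fl/fl library against 0.20 in the control, and 0.70 against -0.14 for *Dlx5*.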

How the results depend on the processing

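No paired analysis was possible because each genotype has 1 library. Single values were recomputed under 9 other settings, of which 1 was added after seeing the data (each library clustered alone). Of these values 336 stayed within their counting interval and 38 left it. A further 3 left an interval that excludes 0 and changed sign, and other changes of sign were not counted. Most moves came from typing each cell by its own markers. Under it the median ratio of the members was -0.11 for mature osteoblast-like over SSPC-2-like control cells and -1.48 for the Piezo1 fl/fl library over the control in SSPC-1-like cells, *Dlx5* in SSPC-2-like over SSPC-1-like control cells was 0.054, and *Runx1* in the same step of the Piezo1 fl/fl library was -0.07. Without mitochondrial, ribosomal protein and collagen genes in the total, the *Dlx5* value was 0.071. With cells thinned to 2500 UMIs, *Dlx6* in mature osteoblast-like cells had a ratio of 0.058 between libraries. The median for SSPC-2-like over SSPC-1-like cells ranged from 0.67 to 1.05 in the control and from 1.28 to 1.57 in the Piezo1 fl/fl library. Comparisons of mature osteoblast-like cells could not be made with 500 to 6000 genes per cell, under 10% mitochondrial UMIs, with doublets kept or at resolution 0.2, where these cells stayed within the SSPC-2-like cluster, nor for the Piezo1 fl/fl library clustered alone. These 53 and 22 cells, the few UMIs of *Msx2* and the single library per genotype limit the values most.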
